A study of Mus musculus with 8 samples.

Results

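The 10 genes described here encode 8 kallikrein-related peptidases of the skin (Klk5, Klk6, Klk7, Klk8, Klk10, Klk11, Klk13 and Klk14) and 2 protease inhibitors made by keratinocytes (Spink5 and Cst6). They were taken by gene name, and all 10 were found among the 18770 genes of the table. mRNA was sequenced from dermis with hair follicles of male mice at D4 after depilation, once keratinocytes of the interfollicular epidermis had been taken off. All mice were wildtype C57BL/6 aged 7 to 8 weeks. Alpinetin, a plant flavonoid, was given to the AP group (n = 4) on the depilated back skin every day, at 3 mg/ml in 20 µl of 65% ethanol. The vehicle control group (VC, n = 4) received the 65% ethanol alone. Each group was sampled at this single time, and each library is named by its group and a number (VC.1 to VC.4, AP.1 to AP.4).

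Kallikrein-related peptidases are secreted serine proteases that are made as inactive precursors and activate each other in a cascade. In the outer layers of the epidermis they cut corneodesmosin, desmoglein 1 and desmocollin 1, the proteins that hold corneocytes together, so that dead cells can be shed. LEKTI, the product of Spink5, is released with them and blocks several of them, KLK5, KLK7 and KLK14 among them, while cystatin M/E, the product of Cst6, blocks the cysteine proteases cathepsin L and legumain and not the kallikreins.

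Values are normalized counts, the reads of a gene divided by 1 size factor per library. Between 6454563 and 7264151 reads were counted per VC library and between 8507783 and 11190113 per AP library. The share of reads on mitochondrially encoded genes was 48.4% ± 5.81 for VC and 8.66% ± 2.63 for AP (SD, n = 4 each). Without them, 3080758 to 3762217 reads were left per VC library and 7561598 to 10594787 per AP library. A floor of 3 reads therefore stood for 4.10 to 5.63 normalized counts in the VC libraries and for 1.49 to 2.18 in the AP libraries, by counting error alone. This difference in depth and mitochondrial share runs along the groups, so its part in any difference between AP and VC cannot be told apart from the treatment.

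Of the 10 genes, 9 passed the filter on low values (4 or more of the 8 libraries with 3 or more normalized counts), and Klk14 did not. All 9 reached that level in the 4 AP libraries, and in VC all but Klk5 and Klk13 (3 libraries each) did so in 4. Each read stood for 1.37 to 1.88 normalized counts in VC and 0.50 to 0.73 in AP. That level therefore took fewer reads in VC, where Klk13 reached it in VC.4 with 2 reads. With limma, 5 of these 9 were higher in AP at an adjusted p under 0.05 (Klk5, Klk7, Klk8, Klk10 and Cst6), where 6.33% of the 15964 genes tested were higher and 4% were lower. The 10 genes were chosen with earlier results of these data known, so the shares beside their counts are descriptions. The same 5 genes had every AP library above every VC library, as did 10.3% of all genes tested. The same 5 genes also met the study's own criteria (fold change over 1.5, with p under 0.01 before adjustment), as did 8.26% of all genes in this direction. Those criteria were applied here to limma values, and with DESeq2 or edgeR on the recovered reads 7 of the 9 met them, Klk6 and Spink5 being added, beside 9.83% of all genes with DESeq2 and 7.99% with edgeR. The median log2 fold change (AP over VC, on log2 of the normalized count plus 1) was 1.62 over the 9 genes and 0.06 over all genes tested. All 9 values were above 0 with limma and under each of 21 alternative settings, although scaling by total reads moved the median of all genes to 0.90 and that of the 9 genes to 2.49. Without AP.3 or without AP.4 only Cst6 was still called, without VC.4 only Klk7 and Cst6, and without VC.3 only Klk5, Klk7 and Cst6. The share of all genes called higher in these 4 fits was 1.31%, 1.59%, 4.54% and 6.3%. In bulk tissue, more cells of a type and more RNA per cell cannot be told apart.

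**Figure D1:**
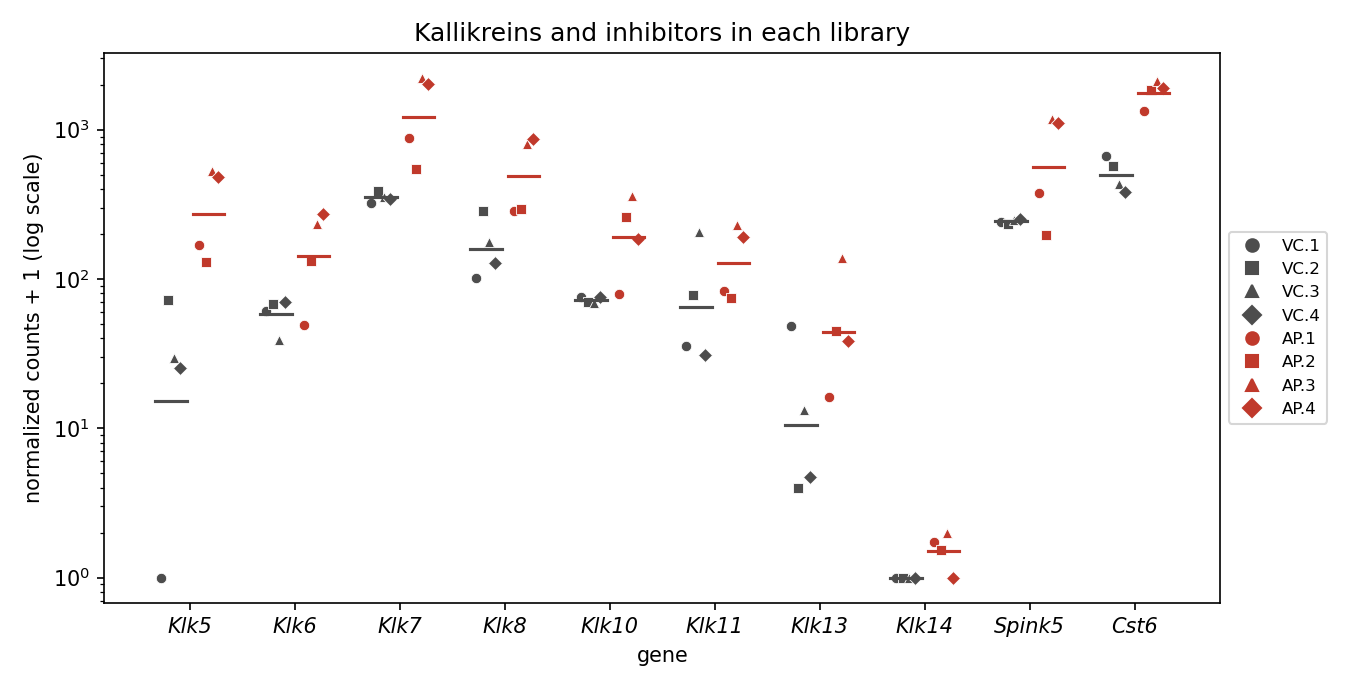
Normalized counts plus 1 on a log axis for the 10 genes, with 1 point per library (VC in grey, AP in red) and a bar at the mean of each group's log values. AP.3 and AP.4 (triangles and diamonds) are the 2 highest AP libraries in 7 of the 9 genes tested, and Klk14 lies near 1 in both groups.

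Klk5 encodes the trypsin-like protease at the head of the epidermal cascade, which activates itself and the precursors of KLK7 and KLK14. It had 0, 70.9, 28.7 and 24.4 normalized counts across VC.1 to VC.4 and 168, 129, 527 and 481 across AP.1 to AP.4. The groups did not overlap, and no Klk5 read was counted in VC.1, where the floor of 3 reads allowed up to 5.46 normalized counts. The mean was 31.0 ± 29.5 in VC and 326 ± 207 in AP (SD, n = 4 each). Klk5 rose by a log2 fold change of 4.16 (SE 1.07, limma adjusted p = 0.0344), and without VC.1 it was 2.85 (limma adjusted p = 0.025). The call was lost without AP.2, AP.3, AP.4 or VC.4 (limma adjusted p = 0.0616, 0.105, 0.0928 and 0.0526), with voom (0.0692), with voom and sample weights (0.0586) and without the intensity trend (0.0881), and the adjusted p ran from 0.00267 to 0.105 over the 21 alternatives.

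Klk7 encodes the chymotrypsin-like protease of the stratum corneum that cuts corneodesmosin and desmocollin 1. Its normalized counts were 320.2, 390.1, 355 and 341 across VC.1 to VC.4 and 877, 548, 2218 and 2035 across AP.1 to AP.4. The VC libraries lay close together, every AP library was above them, and AP.2 was nearest to the VC range. Klk7 rose by a log2 fold change of 1.79 (SE 0.38, limma adjusted p = 0.0186). Over the alternatives its adjusted p ran from 2.1e-05 to 0.0602, and it passed 0.05 in 18 of 21. The exceptions were the fits without AP.3 (0.0564), without AP.4 (0.0553) and without the intensity trend (0.0602).

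Klk14, which encodes a trypsin-like protease that acts beside KLK5 in shedding, had few or no reads counted. No read was counted in any VC library, and AP.1 to AP.4 held 1, 1, 2 and 0 reads. All 8 values lie at or under the floor of 3 reads, so no fold change is given and expression below that depth was not detectable.

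Klk8 encodes neuropsin, a trypsin-like protease of the upper epidermis and of the brain. It had 100.05, 284, 175 and 128 normalized counts across VC.1 to VC.4 and 286, 291, 804 and 861 across AP.1 to AP.4. The ranges did not overlap, but AP.1 and AP.2 lay just above VC.2, the highest VC library. Klk8 rose by a log2 fold change of 1.62 (SE 0.42, limma adjusted p = 0.0348). This call was lost without AP.3, AP.4, VC.1, VC.3 or VC.4 (limma adjusted p = 0.108, 0.0953, 0.0841, 0.0549 and 0.0705), with voom and without the intensity trend, within a range of 0.00171 to 0.108 over the alternatives.

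Klk10 encodes a secreted member of the family made by many epithelia. The VC values were nearly equal, at 74.6, 69.5, 68.3 and 75.0 normalized counts in VC.1 to VC.4, and the AP values were 78.3, 258, 357 and 184 across AP.1 to AP.4. AP.1 was therefore only just above the VC range, while the other AP libraries were well above it. The SD was 4.82% of the mean in VC and 53.7% in AP. Klk10 rose by a log2 fold change of 1.40 (SE 0.39, limma adjusted p = 0.0425). Without AP.1 the log2 fold change was 1.83 (limma adjusted p = 0.0033), and leaving out any other library took the adjusted p above 0.05, to between 0.0682 and 0.13. The call was also lost with voom (0.106), with voom and sample weights (0.0811) and without the intensity trend (0.0892). Over all alternatives it ran from 0.00148 to 0.13.

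Klk6, which encodes neurosin, a trypsin-like protease also abundant in the central nervous system, did not pass the test. It had 60.03, 66.5, 38.2 and 69.4 normalized counts across VC.1 to VC.4 and 47.9, 131, 234 and 272 across AP.1 to AP.4. AP.1 lay inside the VC range and the other 3 AP libraries above it. The log2 fold change was 1.30 (SE 0.48, limma adjusted p = 0.0958). Without AP.1 it was 1.81 (limma adjusted p = 0.00961), and with DESeq2 on the recovered reads it was 1.55 (adjusted p = 0.0107), within a range of 0.00362 to 0.252 over the alternatives.

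Klk11, a further secreted member found in skin and prostate, had 34.6, 76.8, 206 and 30.0 normalized counts across VC.1 to VC.4 and 82.7, 73.9, 227 and 191 across AP.1 to AP.4. VC.3 lay among the high AP libraries, and 1 of the 4 AP libraries was above the highest VC value. The log2 fold change of 0.99 (SE 0.58, limma adjusted p = 0.272) did not pass the test. With a library left out, this fold change ran from 0.63 to 1.545. Over the 21 alternatives the adjusted p ran from 0.0313, with scaling by total reads, to 0.526.

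Klk13, with the lowest mean per kilobase of the members that passed the filter, had 47.3, 2.96, 12.3 and 3.75 normalized counts across VC.1 to VC.4 and 15.2, 43.7, 137 and 37.2 across AP.1 to AP.4. The values in VC.2 and VC.4 were 2 reads each, under the floor. VC.1 was above 3 of the 4 AP libraries. The log2 fold change was 2.08 (SE 0.83, limma adjusted p = 0.121), and without VC.1 it was 2.81 (limma adjusted p = 0.0497), within a range of 0.0114 to 0.316 over the alternatives.

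Of the inhibitors, Spink5 encodes LEKTI, a chain of many inhibitory domains whose loss causes Netherton syndrome in people. It had 240.1, 233, 247 and 251 normalized counts across VC.1 to VC.4 and 376, 195, 1180.3 and 1116 across AP.1 to AP.4. The VC libraries were nearly equal, AP.2 was below all of them, and the other 3 AP libraries were above. The log2 fold change was 1.20 (SE 0.47, limma adjusted p = 0.118). Without AP.2 it was 1.70 (limma adjusted p = 0.0307), and with DESeq2 on the recovered reads it was 1.56 (adjusted p = 0.00925), within a range of 0.00469 to 0.294 over the alternatives.

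Cst6, the cystatin M/E gene, had 662, 566, 429 and 379 normalized counts across VC.1 to VC.4 and 1335, 1830.0, 2130.5 and 1892 across AP.1 to AP.4. The lowest AP library was above the highest VC library by more than the whole VC range. Means were 509 ± 129 in VC and 1797 ± 334 in AP (SD, n = 4 each), a ratio of 3.53. Cst6 rose by a log2 fold change of 1.83 (SE 0.21, limma adjusted p = 0.00231). Of the 9 genes tested, Cst6 alone passed 0.05 in all 21 alternatives, with log2 fold changes from 1.70 to 2.70 and adjusted p from 6.63e-12 to 0.0161.

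As a percentage of the mean, the SD was larger in AP than in VC for Klk6, Klk7, Klk8, Klk10 and Spink5, and smaller in AP for Klk5, Klk11, Klk13 and Cst6. AP.3 was the highest AP library for 7 of the 9 genes (Klk5, Klk7, Klk10, Klk11, Klk13, Spink5 and Cst6) and AP.4 for Klk6 and Klk8, whereas AP.3 was highest for 23.0% and AP.4 for 25.7% of all genes tested. The lowest AP library was AP.2 for Klk5, Klk7, Klk11 and Spink5, and AP.1 for Klk6, Klk8, Klk10, Klk13 and Cst6. AP.2 thus combined VC-like Spink5 with raised Klk10 and Cst6, and AP.1 combined VC-like Klk6 and Klk10 with raised Klk5 and Klk7.

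To order the genes by level, values were divided by exonic length in kilobases. In VC, Klk7 was highest at 186 ± 15.5 normalized counts per kilobase (SD, n = 4), with libraries from 169 to 206. Cst6 (124 ± 31.6) and Klk8 (111 ± 52.6) followed by mean and overlapped each other, and the highest Klk8 library (184) lay inside the Klk7 range. Klk11 (59.2 ± 56.1), Klk10 (52.3 ± 2.52) and Spink5 (50.8 ± 1.64) came next by mean, with overlapping ranges. Klk6 (38.7 ± 9.31), Klk5 (23.2 ± 22.1) and Klk13 (7.21 ± 9.10) had lower means, and Klk14 was at 0. In AP the order was Klk7 (749 ± 438), Cst6 (439 ± 81.6), Klk8 (364 ± 205), Klk5 (244 ± 155), Klk10 (160 ± 85.8), Spink5 (150 ± 105), Klk6 (113 ± 67.1), Klk11 (97.9 ± 52.5) and Klk13 (25.3 ± 23.4), all per kilobase. Every neighbour in that order overlapped the next one over the 4 libraries, so the move of Klk5 from place 8 to place 4 rests on the means.

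Summed over the 8 kallikreins without division by length, normalized counts were 637, 961, 883 and 671 across VC.1 to VC.4. They were 1555, 1475, 4506 and 4060.4 across AP.1 to AP.4. No AP library fell into the VC range. The mean was 788 ± 159 in VC and 2899 ± 1609 in AP (SD, n = 4 each), a ratio of 3.68. Klk7 supplied 45.5% ± 5.87 of the sum in VC and 48.2% ± 8.05 in AP, and Klk5 supplied 3.57% ± 3.02 in VC and 10.8% ± 1.43 in AP (SD, n = 4 each). These are shares of counts not divided by length, so a longer transcript weighs more in them. On the log2 scale the sum was 1.71 higher in AP.

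Ratios within a library depend little on the scaling between libraries. They were taken on counts not divided by length, so their height does not compare amounts of transcript. The log2 ratio of Klk5, Klk7 and Klk14 (summed) to Spink5 was 0.41, 0.98, 0.63 and 0.54 across VC.1 to VC.4 and 1.47, 1.79, 1.22 and 1.17 across AP.1 to AP.4. Every AP library was above every VC library, and the highest ratio was that of AP.2, the AP library with the lowest Spink5. The mean difference was 0.77, and it ran from 0.65 to 0.99 over the 12 alternatives run for this ratio. With all 8 kallikreins over Spink5 the difference was 0.52 (0.27 to 0.64 with a library left out) and the groups overlapped. With all 8 kallikreins over Cst6 it was -0.12, the groups overlapped, and its sign turned without AP.2 (0.16) and without VC.3 (0.01). These sums and ratios are descriptions and carry no p-value.

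**Figure D2:**
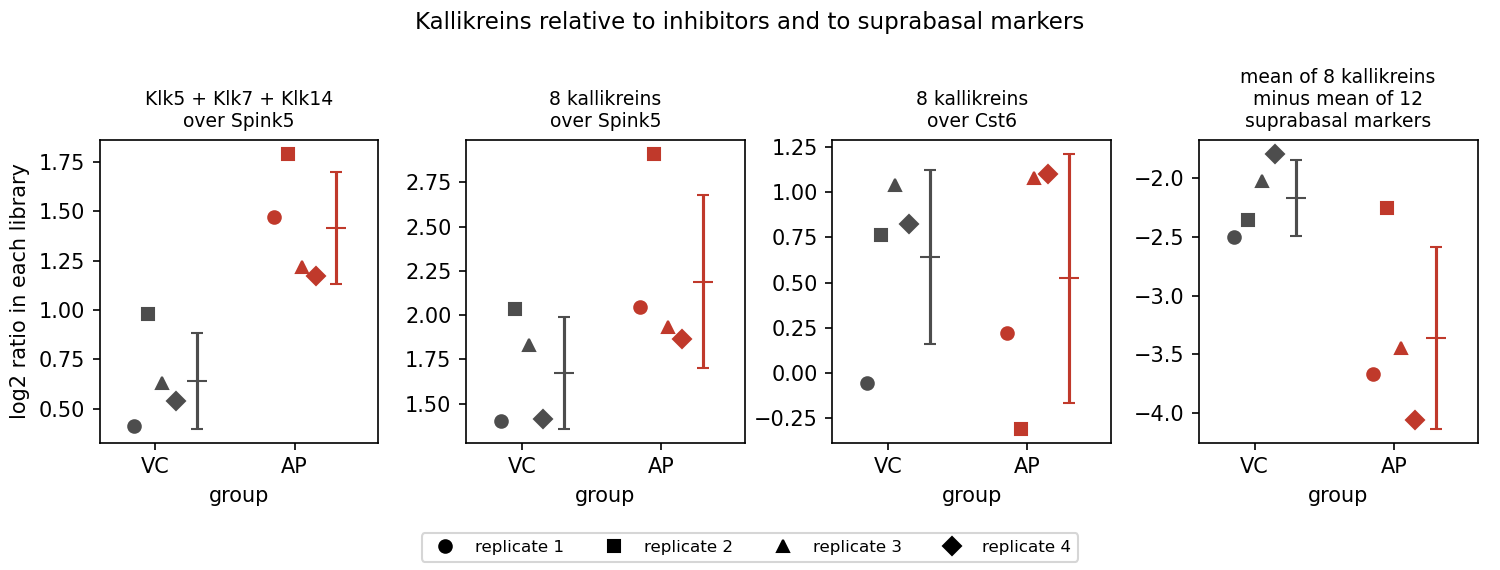
Log2 ratios in each library, from left to right Klk5, Klk7 and Klk14 summed over Spink5, the 8 kallikreins over Spink5, the 8 kallikreins over Cst6, and the mean log2 level of the 8 kallikreins minus that of 12 suprabasal markers. Points are libraries and bars are the mean ± SD of 4; only in the leftmost panel do the groups not overlap.

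The 8 kallikrein genes lie on the + strand of chromosome 7 within 160764 bases (mm10, chr7:43690418-43851181), in the order Klk14, Klk13, Klk11, Klk10, Klk8, Klk7, Klk6 and Klk5. Klk12 and Klk9, which are not among the 10 genes, lie between them. Klk5 is at chr7:43841971-43851181, Klk7 at chr7:43811294-43816359, Klk8 at chr7:43797577-43803826 and Klk10 at chr7:43781035-43785410. Cst6 is on the - strand at chr19:5344705-5349574, and Spink5 is on the + strand of chromosome 18. Klk9 had 16.4, 28.1, 30.0 and 13.1 normalized counts across VC.1 to VC.4 and 26.1, 15.1, 143 and 105 across AP.1 to AP.4, again highest in AP.3 and AP.4, with overlapping groups and a log2 fold change of 1.23 (SE 0.66, limma adjusted p = 0.231). Klk12 stayed at 2.73 normalized counts or less in VC and reached 2.70 to 7.97 in AP, and it did not pass the filter. At the far end of the cluster, Klk1, the tissue kallikrein that releases kinins, had 5.46 to 12.7 normalized counts in VC and 1.62 to 6.53 in AP (log2 fold change -1.07, SE 0.60, limma adjusted p = 0.253). None of the other kallikreins passed the test with limma, edgeR or DESeq2, and 0 had an unadjusted limma p under 0.05.

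**Figure D3:**
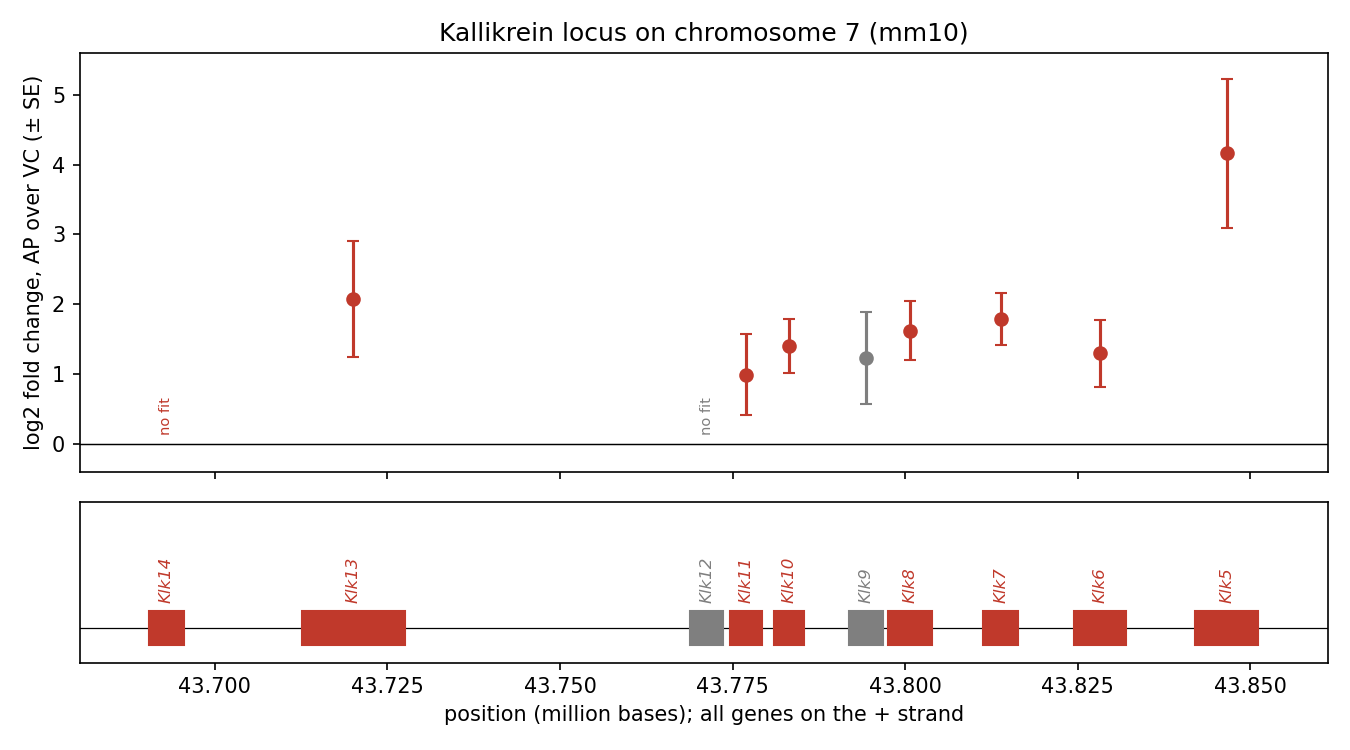
Log2 fold change (AP over VC, ± SE of the limma fit) of each kallikrein gene above its position on chromosome 7 of mm10, with the 8 members in red and Klk9 and Klk12 in grey. All fitted genes of the stretch lie above 0, from 0.99 for Klk11 to 4.16 for Klk5, and the 2 genes marked "no fit" were too low to test.

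An antisense transcript, 2310002F09Rik, shares 382 exonic bases with Klk8 (24.8% of its exonic length) and 287 with Klk14 (22.6%). Whether reads were counted by strand is not given in the sources used here, so in those stretches reads of Klk8 or Klk14 and of this transcript cannot be told apart. Of the 1172 stretches of 50 bases in Klk14, 246 also occur in transcripts of other genes, and how such reads were counted is not given, so the low Klk14 counts carry this limit too. Of the 50-base stretches of the annotated transcripts, none of Klk5, Klk6, Klk7, Klk10, Klk11, Klk13, Spink5 or Cst6 occurs in a transcript of another gene.

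Promoter sequences were found in the RefSeq table (build GRCm38.p6) for 8 of the 10 genes, in 10 entries. All are of kallikreins, neighbouring genes of the same family, and neither Spink5 nor Cst6 had an entry. The 250 bases before the start were searched on both strands for letters bound by factor families of differentiating keratinocytes and for TATA-like letters. CCACCC, read by Kruppel-like factors, was found in 6 of the 10 windows (Klk5, Klk7, Klk10, Klk11, Klk13 and Klk14) and in 28.1% of all 32851 windows of this length. The share of G and C was 50.4% to 65.2% in the 10 windows, against a median of 52.4% over all windows. Its part in the count of CCACCC was not tested. TTAAAA was found in 4 (Klk6, Klk8, Klk10 and Klk11) and in 17.7% of all windows. TGANTCA (AP-1), AACCNGTT (Grainyhead-like) and TATAAA were found in 0 of the 10, against 6.75%, 1.79% and 12.4% of all windows. The windows of 3 kallikreins that rose and of Klk14, which was near 0, are shown for comparison, + strand, on chromosome 7. CCACCC or its reverse complement GGGTGG and TTAAAA are in capitals.
Klk7 (chr7:43811044-43811293): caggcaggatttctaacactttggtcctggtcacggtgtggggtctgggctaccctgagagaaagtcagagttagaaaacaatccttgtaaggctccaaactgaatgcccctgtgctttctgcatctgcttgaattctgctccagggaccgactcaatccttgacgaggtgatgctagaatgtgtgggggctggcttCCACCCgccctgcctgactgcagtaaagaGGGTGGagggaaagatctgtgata
Klk8 (chr7:43797327-43797576): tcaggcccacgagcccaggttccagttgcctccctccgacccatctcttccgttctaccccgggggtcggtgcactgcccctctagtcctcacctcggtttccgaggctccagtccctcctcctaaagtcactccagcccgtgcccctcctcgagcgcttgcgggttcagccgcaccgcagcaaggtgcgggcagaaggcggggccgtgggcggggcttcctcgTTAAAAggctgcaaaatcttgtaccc
Klk10 (chr7:43780804-43781053): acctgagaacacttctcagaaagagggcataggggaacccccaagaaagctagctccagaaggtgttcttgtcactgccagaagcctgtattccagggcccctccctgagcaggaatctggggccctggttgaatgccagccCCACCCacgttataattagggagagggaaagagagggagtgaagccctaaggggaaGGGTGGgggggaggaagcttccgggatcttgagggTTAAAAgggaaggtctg
Klk14 (chr7:43690168-43690417): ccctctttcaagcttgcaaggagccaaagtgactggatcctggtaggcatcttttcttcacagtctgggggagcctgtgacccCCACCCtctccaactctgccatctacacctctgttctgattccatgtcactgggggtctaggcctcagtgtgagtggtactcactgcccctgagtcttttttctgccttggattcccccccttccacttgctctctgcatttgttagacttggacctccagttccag
Klk7 holds CCACCC 53 bases before its start and the reverse complement 24 bases before. Klk8 and Klk10 hold TTAAAA 26 and 17 bases before, and no matches overlap. These distances are from the RefSeq start. By the GENCODE exons used for the gene positions above, the last 19 bases of the Klk10 window are exonic, its TTAAAA among them, as are 49 bases of the Klk5 window, 13 of 1 Klk11 window, and 45 and 55 of the Klk6 windows. In the Klk8 window 157 bases are exonic in 2310002F09Rik. Klk14, which was near 0, holds CCACCC as well, 167 bases before its start, and no TTAAAA. The part of these letters in the values was not tested. A match describes letters and not a bound site.

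The proteases that can activate kallikreins gave no call. Of 8 listed, 5 were in the table, and with limma, edgeR and DESeq2 0 passed an adjusted p of 0.05, with 1 at an unadjusted limma p under 0.05. St14, which encodes matriptase, had a log2 fold change of -0.22 (SE 0.42, limma adjusted p = 0.755) and Prss8, which encodes prostasin, one of 0.03 (SE 0.37, limma adjusted p = 0.97). Tmprss13, a membrane-bound serine protease gene, had 31.9 to 131 normalized counts in VC and 112 to 251 in AP (log2 fold change 1.11, SE 0.42, limma adjusted p = 0.105). The median over the 5 was 0.04, against 0.06 over all genes. Beside this list and those below, 6.33% of all genes tested were higher in AP with limma.

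Among other serine protease inhibitors, 10 of 12 listed were in the table and 8 were tested. Wfdc5, Serpinb7 and Serpinb12 passed the test, all higher in AP, and the median log2 fold change of the 8 was 1.89. Wfdc5 had 0, 1, 9 and 1 reads across VC.1 to VC.4, so 3 of its 4 VC values lie under the floor of 3 reads. It passed the filter by its AP values, and its fold change is uncertain. With voom 0 of the 8 passed (adjusted p = 0.0976, 0.172 and 0.103 for these 3), and with voom and sample weights all 3 were lost as well (0.0934, 0.15 and 0.0948). Without AP.3 (0.0743, 0.0574 and 0.109) and without AP.4 (0.065, 0.0538 and 0.0976) all 3 calls were lost, and that of Serpinb12 also without AP.2 (0.0715), without VC.3 (0.0531) and without the intensity trend (0.0783). Over the alternatives the adjusted p ran from 0.000192 to 0.0976 for Wfdc5, from 4.96e-07 to 0.172 for Serpinb7 and from 0.000129 to 0.109 for Serpinb12. Serpinb7, a clade B serpin gene whose loss causes a palmoplantar keratoderma in people, had 10.9, 11.8, 13.7 and 16.9 normalized counts across VC.1 to VC.4 and 104, 28.6, 289 and 248 across AP.1 to AP.4. As for Spink5, AP.2 was the lowest AP library. Its log2 fold change was 3.11 (SE 0.62, limma adjusted p = 0.0165). Serpina12, which encodes vaspin, an inhibitor of KLK7, had 2.73 to 20.01 normalized counts in VC and 97.9, 8.63, 154 and 156 across AP.1 to AP.4. AP.2 fell into the VC range, and the log2 fold change of 3.09 (SE 0.90) had a limma adjusted p of 0.0505. VC.2 and VC.3 held 2 Serpina12 reads each, under the floor of 3 reads. Serpina12 passed in 6 of 21 alternatives, among them DESeq2 (adjusted p = 0.000401), edgeR (0.0272) and limma without AP.2 (0.014). Its adjusted p was highest with voom (0.288). Spint1 and Spint2, the genes of the matriptase inhibitors HAI-1 and HAI-2, had log2 fold changes of 0.03 (SE 0.34) and -0.30 (SE 0.28), with limma adjusted p of 0.969 and 0.496.

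Around Cst6, the cysteine protease list had all 11 genes in the table and tested, and 2 passed the test, Csta1 and Tgm3, both higher in AP. Csta1, a gene of the stefin family of cysteine protease inhibitors, had 54.6, 29.6, 45.1 and 7.50 normalized counts across VC.1 to VC.4 and 139, 148, 353 and 433 across AP.1 to AP.4. Tgm3, the transglutaminase gene downstream of cathepsin L in this axis, had 25.5, 54.7, 25.9 and 13.1 across VC.1 to VC.4 and 124, 117, 244 and 315 across AP.1 to AP.4. Neither overlapped between groups, and their log2 fold changes were 3.06 (SE 0.58, limma adjusted p = 0.0136) and 2.75 (SE 0.45, limma adjusted p = 0.00896). The 2 target proteases of cystatin M/E did not pass. Ctsl had a log2 fold change of -0.12 (SE 0.26, limma adjusted p = 0.786) and Lgmn, the legumain gene, one of -0.59 (SE 0.25, limma adjusted p = 0.145). The median of the list was -0.02.

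All 7 genes for substrates of the kallikreins and for the receptor they cut were tested, 2 of which (Flg and Cdsn) are also among the suprabasal markers below. The median log2 fold change was 2.70, against 0.06 over all genes. Of the 7, 5 rose (Dsg1a, Dsg1b, Dsc1, Flg and F2rl1), where 6.33% of all genes did. Of these 5 calls only that of Dsg1b was lost in any alternative, without AP.3 (limma adjusted p = 0.0574), without AP.4 (0.0528) and without the intensity trend (0.053), in a range of 2.78e-05 to 0.0574. Dsg1a, a desmoglein 1 gene, had 298, 386, 373 and 176 normalized counts across VC.1 to VC.4 and 988, 1165, 3449 and 3482 across AP.1 to AP.4, with no overlap (log2 fold change 2.70, SE 0.42, limma adjusted p = 0.00843). Dsc1, the desmocollin 1 gene, had 52.8, 93.1, 56.0 and 95.6 across VC.1 to VC.4 and 234, 541, 1392 and 1415 across AP.1 to AP.4 (log2 fold change 3.29, SE 0.50, limma adjusted p = 0.0078). For both, AP.3 and AP.4 were again the high libraries. Cdsn, the corneodesmosin gene, had 81.9, 198, 120.2 and 313 across VC.1 to VC.4 and 249, 325, 744 and 566 across AP.1 to AP.4. VC.4 lay inside the AP range, and the log2 fold change was 1.44 (SE 0.42, limma adjusted p = 0.0512). Cdsn passed in 6 of 21 alternatives, among them DESeq2 (adjusted p = 0.0135), limma without AP.1 (0.0292) and limma without VC.4 (0.0322). Its adjusted p ran from 0.00193 to 0.149. F2rl1, which encodes PAR2, the receptor that KLK5 and KLK14 cleave, had 40.0, 75.4, 76.5 and 28.1 across VC.1 to VC.4 and 141, 221, 225 and 228 across AP.1 to AP.4. Its groups did not overlap and its log2 fold change was 1.96 (SE 0.34, limma adjusted p = 0.0104).

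Markers of the suprabasal epidermis were present in every library, although this layer is part of the tissue that was taken off before extraction. Of 12, all were tested and 9 were higher in AP, with a median log2 fold change of 3.11 (7 passed with voom). Their summed normalized counts were 5434, 11861, 8038 and 5498 across VC.1 to VC.4 and 41474, 38724, 115395 and 162639 across AP.1 to AP.4. Krt10 was the highest per kilobase, and Krt2 was at 0 in VC.4. Lor had 555, 399, 692 and 266 across VC.1 to VC.4 and 5695, 416, 10478 and 6788 across AP.1 to AP.4. Lor in AP.2 was inside the VC range, as Flg2 was (21.6 in AP.2 against 7.50 to 36.4 in VC), and AP.2 was also the library with the lowest Klk7 and Spink5 among AP. Of the 8 fits that leave out a library, Lor and Flg2 passed in 1 each, the fit without AP.2, and their adjusted p ran from 0.000331 to 0.112 and from 0.000397 to 0.301 over all alternatives. The mean log2 level of the 8 kallikreins minus that of the 12 markers was -2.50, -2.35, -2.02 and -1.79 across VC.1 to VC.4 and -3.67, -2.26, -3.45 and -4.06 across AP.1 to AP.4. It was 1.19 lower on average in AP, where AP.2 alone lay in the VC range, so by means of logs the markers differed between the groups by more than the kallikreins in the other 3 AP libraries. With summed counts in place of means of logs the difference was -1.63, and all 4 AP libraries (-4.71 in AP.2) lay below the VC range of -3.62 to -3.03. The part of suprabasal keratinocytes in the members' values was not tested.

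Of 7 basal markers, 3 were higher in AP (Itga6, Itgb4 and Col17a1), with a median log2 fold change of 1.02. Their sums were 28878, 82599.8, 52055 and 24681 across VC.1 to VC.4 and 54637, 54592, 101778 and 145127 across AP.1 to AP.4, with Krt14 the highest per kilobase and none at 0. The mean log2 level of the 8 kallikreins minus that of the 7 basal markers was 0.64 higher on average in AP. This is the other direction from the suprabasal comparison, and the groups overlapped. Of 5 upper follicle markers, 3 were higher (Lrig1, Plet1 and Defb6), with sums of 6463 to 13943 in VC and 11360.1 to 17907 in AP, Krt17 the highest per kilobase and none at 0. Of 4 companion layer and wound markers, 2 were higher (Krt6b and Krt16), with sums of 1141, 3056, 1806 and 887 across VC.1 to VC.4 and 1929, 12135, 26469 and 18134 across AP.1 to AP.4. Per kilobase the highest mean was that of Krt6a in VC (475) and of Krt16 in AP (2564), and Krt6b was at 0 in VC.1. With voom 1 of the 4 passed. Their part in the members' values was not tested. Of the remaining lists, 1 of 7 inner root sheath markers, 1 of 4 red blood cell markers and 1 of 2 neutrophil markers tested were higher (1, 1 and 0 with voom). With limma, 0 of 7 sebaceous gland, 6 hair shaft, 7 fibroblast, 4 skeletal muscle, 4 adipocyte and 5 leukocyte markers passed, of which 0, 2, 2, 3, 1 and 3 had an unadjusted p under 0.05. Among these 6 lists edgeR called none and DESeq2 called 1 hair shaft and 1 leukocyte marker. The muscle markers summed to 34560.4, 52096, 25473 and 28684 across VC.1 to VC.4 and to 46471, 6527, 3986 and 8775 across AP.1 to AP.4, with Acta1 the highest per kilobase. AP.1, the lowest AP library for 5 members, lay inside the VC range, and the other AP libraries lay below it. All 4 muscle genes had log2 fold changes below 0 (median -1.80), and the part of muscle in the members' values was not tested.

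Outside the lists, the genes whose profile over the 8 libraries was nearest to the mean profile of the 9 members were Ptpn13, Susd2, 2310046K23Rik, Acpp and Il1rn. Nearness was the root mean square difference of centred log2 values, over 14376 genes whose mean was 10 normalized counts or more. It was 0.23, 0.25, 0.26, 0.26 and 0.27 in this order, against a median of 1.14. Ptpn13, a protein tyrosine phosphatase gene, had 235, 272, 332 and 197 normalized counts across VC.1 to VC.4 and 502, 553, 1114 and 1042 across AP.1 to AP.4. Il1rn, the interleukin 1 receptor antagonist gene, had 60.03, 90.1, 75.1 and 67.5 across VC.1 to VC.4 and 117, 127, 289 and 321 across AP.1 to AP.4. In Ptpn13 and Il1rn, AP.3 and AP.4 were the high libraries and the groups did not overlap. The mean profile by which these genes were picked has the same features, so this restates the choice. Of the members, Klk7 and Klk8 were closest to the mean profile (0.30 each) and Klk5 was farthest (1.93), the library without Klk5 reads included.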

How the data were processed

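mRNA libraries of 4 AP and 4 VC mice were compared. Reads were aligned to mm10 with STAR and counted per gene by the authors (featureCounts in the methods, HTSeq in the submitters' processing notes; versions not given in the sources used here). The deposited signal values are read counts after division by DESeq2 size factors. All 150160 values were whole multiples of 1 step per library (within 0.01 of a read), so reads were recovered. The deposited table also holds the authors' DESeq2 comparison (fold changes, p-values), which was not used. Column numbers differ from the mouse numbers in the labels, so columns were tied to groups only.

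log2(value + 1) was fitted with limma 3.58.1 (R 4.3.3) with an intensity trend over 15964 genes, with Benjamini-Hochberg adjustment over all of them. edgeR 4.0.16, DESeq2 1.42.0 and limma-voom on recovered reads, pseudocounts of 0.5 and 5, 2 other filters, 3 scalings, reads drawn down to 3080758, no trend and each library left out were alternatives. The steps were tested on simulated data. Permutation tests of the sums and ratios over the members were planned and run, and are left out, because the members were chosen with results known. Members and lists were chosen with earlier results of these data known, and the motifs after the values were seen. Named genes were the members, the genes of the lists and the 5 nearest profiles. Positions and exonic lengths are from GENCODE M21, promoters from RefSeq (GRCm38.p6).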

Additional observations from a re-analysis of the deposited data

Results flagged for a closer look

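Of 154 groups of 4 values looked at (members, related genes, list sums and ratios), 7 held a library far from the other 3, by the gap to the nearest library as a share of the range of the 4; chance alone gives about 1 in 20. No member was among them. Outside these 7, the log2 ratio of summed kallikreins to summed suprabasal markers also had a far library, AP.4 (-5.32, against -4.74 to -4.68 in AP.1 to AP.3). Among the 7, the single genes were Wfdc5 in VC.3 (12.3 normalized counts), A2ml1 in VC.1 (9.10, with the other VC libraries at 0), Klk12 in VC.3 (2.73, likewise) and F2rl1 in AP.1 (141, below the other AP libraries). For sums they were the cysteine protease list in AP.3 (14534, low), the skeletal muscle markers in AP.1 (46471, inside the VC range of 25473 to 52096, against 3986 to 8775 in the other AP libraries) and the leukocyte markers in AP.1 (12694, high). Their part in the members' values was not tested.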

How the results depend on the processing

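All 9 tested members kept a positive log2 fold change under all 21 alternatives. The 1650 genes called became 3039 with DESeq2, 592 without the intensity trend and 8727 with scaling by total reads (8657 higher and 70 lower, against 1011 and 639), and 303 to 1899 with a library left out. The 5 members called became 7 with DESeq2, 2 with voom and 3 with voom and sample weights. They became 1 without the trend and 9 with total reads. Of all genes, 10.5%, 4.48%, 5.37%, 2.36% and 54.2% were higher in these fits, against 6.33%. With a library left out 1 to 6 members were called, beside 1.31% to 6.78% of all genes. By the criteria of the study methods 4 to 6 members passed with a library left out (5.31% to 8.81% of all genes). DESeq2 and edgeR gave 7 by those criteria (9.83% and 7.99% of all genes). Those criteria gave 4 with voom, with voom and sample weights and without the trend (6.63%, 6.90% and 6.53%), and 8 with total reads (43.3%). Total reads moved the members' median log2 fold change to 2.49 and the difference of the kallikrein sum to 2.58, beside a median of 0.90 over all genes. The kallikrein to Cst6 ratio turned from -0.12 to 0.16 without AP.2 and to 0.01 without VC.3, within -0.35 to 0.16 with a library left out. The cause of these changes was not tested. No paired analysis was made, because the AP and VC libraries came from separate groups of mice. Fewer reads outside the mitochondrial genes in VC (3080758 to 3762217) limit the low members, Klk13, Klk14 and Klk5 in VC.1, most. A group size of 4, in which AP.3 and AP.4 carry the highest member values, limit the calls of the members, of which only that of Cst6 held throughout.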
